A study of Mus musculus with 28 samples.

Results

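Integrins are the receptors with which macrophages hold on to other cells and to the extracellular matrix, and 10 of their genes were followed here in macrophages exposed to von Willebrand factor (VWF), the plasma protein that tethers platelets to a damaged vessel wall. The genes were chosen by name, as the leukocyte integrins and the fibronectin receptors: Itgam, Itgal, Itgax and Itgb2 of the β2 family, and Itga4, Itga5, Itga6, Itgb1, Itgb5 and Itgb7. All 10 are among the 54532 genes of the count table. The rule that names them uses no measured value, but the set was chosen with earlier results of these data known. The cells were murine bone marrow-derived macrophages (BMDMs), grown from marrow with the growth factor M-CSF, and RNA was sequenced from 28 cultures. At 3.5 h and again at 16 h there were 5 control cultures given PBS, 5 cultures given plasma-derived VWF at 10 µg/ml and 4 cultures given bacterial lipopolysaccharide (LPS) at 100 ng/ml, all in fresh medium with added calcium chloride. LPS, a cell wall component that macrophages sense through Toll-like receptors, served as the second stimulus against which VWF could be set. The marrow came from mice of a strain written C57/B6JB, aged 8 to 12 weeks by the culture methods, while the ethics statement gives 6 to 8 weeks for murine work. The labels number the cultures of a group as biological replicates. Whether those cultures came from different animals is not stated in the labels or methods, so the p-values measure the spread between cultures.

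An integrin is a pair of an α and a β subunit, and neither chain reaches the cell surface in quantity without the other. The β2 chain, made by leukocytes, pairs with αL to form LFA-1, a receptor for the ICAM adhesion molecules, with αM to form Mac-1, which also takes up complement-coated particles and binds fibrinogen, and with αX to form a related complement receptor. The β1 chain pairs with many α subunits, among them α5 in the classical fibronectin receptor, α4 in a receptor for VCAM-1 and fibronectin, and α6 in a laminin receptor. Transcript levels of single subunits, as measured here, are not levels of the assembled pairs.

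Total counts per culture lay between 41131209 and 77699206, with a median of 52986574, so that every member was counted deeply in every group. Levels are given as CPM (counts scaled to a common library size by TMM factors over the 28 cultures) with the SD over n cultures, n being 5 for control and VWF and 4 for LPS. Where genes are compared with each other the level is given as TPM, which divides by transcript length. Differences are log2 fold changes with their SE from edgeR's quasi-likelihood test, fitted over all genes that reached 10 TPM in at least 1 culture of a comparison, with Benjamini-Hochberg adjusted p. A gene was called changed when the adjusted p was under 0.05 and the absolute log2 fold change over 1, and a gene that met only the first condition is described as passing the adjusted p alone. Control culture 5 and LPS culture 4 at 16 h stood apart from their groups, with a mean absolute log2 deviation from the group of 0.676 and 0.477, against 0.0570 to 0.289 in the other 26 cultures, and values without them are given wherever leaving both out changed a call or the side of the adjusted p. All 7 macrophage markers examined were above 1 TPM in every group, with summed levels from 7602 to 50441 TPM, and no group mean of a marker of T and NK cells, B cells, mast cells, megakaryocytes or erythroid cells passed 1 TPM. Of 5 dendritic cell markers only Xcr1 passed 1 TPM on average. The stromal genes Col1a1, Col1a2 and Dcn summed to between 3.28 and 136 TPM and varied within every group, and their part in the integrin levels was not tested. In bulk RNA, fewer cells of a type and less RNA per cell cannot be told apart.

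Itgam and Itgax lie on the same strand of chromosome 7 (GRCm38, GENCODE), at chr7:128062640-128118491 and chr7:128129547-128150657, and they moved in opposite directions with VWF at 16 h. Their promoter windows, the 250 bases before the RefSeq start (GRCm38.p6, sense strand, chr7:128062390-128062639 for Itgam and chr7:128129300-128129549 for Itgax), are shown for that reason. The capitals mark a match to the PU.1 letters GAGGAAG in Itgam and to the AP-1 letters TGANTCA in Itgax.
Itgam: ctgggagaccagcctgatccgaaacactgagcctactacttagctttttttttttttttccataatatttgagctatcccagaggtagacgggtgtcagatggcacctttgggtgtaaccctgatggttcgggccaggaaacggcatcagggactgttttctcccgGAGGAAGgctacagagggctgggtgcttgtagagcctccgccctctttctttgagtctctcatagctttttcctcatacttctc
Itgax: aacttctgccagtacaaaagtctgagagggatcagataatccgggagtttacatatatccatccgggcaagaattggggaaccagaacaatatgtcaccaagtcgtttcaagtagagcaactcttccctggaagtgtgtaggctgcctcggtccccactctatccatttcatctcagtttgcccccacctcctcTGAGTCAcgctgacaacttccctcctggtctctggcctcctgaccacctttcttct
The set of promoter windows used here held 7 of the 10 members (not Itgb2, Itgal and Itga6). Of these, 1 window held the AP-1 letters, 1 the PU.1 letters and 0 the NF-kappaB letters GGANTTTCC, searched on both strands. Over 32851 promoter windows of the same length these letters were found in 6.75%, 10.6% and 1.07%. A match in a window is a description of its letters and not of a bound factor.

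In unstimulated macrophages at 3.5 h the β subunits Itgb2, Itgb1 and Itgb5 had the highest medians of the 10 transcripts per length. The median level was 543 (522 to 928) TPM for Itgb2, 463 (393 to 574) for Itgb1 and 362 (276 to 388) for Itgb5, with the lowest and highest of the 5 cultures in parentheses. Itgb2 overlapped Itgb1, while the lowest Itgb1 culture stood above the highest Itgb5 culture. Among the α subunits Itga5 led with 264 (217 to 334) TPM, in the range of Itgb5, and Itgam followed with 151 (144 to 169), apart from its neighbours in the order on either side. Itga6 at 61.6 (54.9 to 89.0), Itgax at 39.2 (24.7 to 55.9) and Itgal at 28.3 (23.2 to 58.8) TPM each overlapped the next gene in the order, which after Itgal was Itgb7 at 22.7 (19.9 to 27.2) TPM, and Itga4, at 6.85 (5.49 to 13.8) TPM, was below all of them with no overlap. With its longest transcript in place of all its exons, Itga6 had a median of 97.9 TPM and the same place in the order. For Itgam, 68.7% of its exon bases are shared with Gm49368, another annotated gene on the same strand, and how reads in the shared bases were counted is not stated in the labels or methods.

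The order of the transcripts differed between stimuli and times. In VWF-treated cultures at 3.5 h Itga5 ranked first, at 544 (463 to 749) TPM, overlapping Itgb2 at 494 (369 to 784) and Itgb1 at 448 (386 to 587) TPM. In LPS-treated cultures at 16 h Itga5 ranked below Itgb2 and Itgb1, at 241 (168 to 337) TPM, while Itgb5, which ranked above Itgam and below Itgb1 in the other groups, came after Itgam and Itgal at 46.3 (37.3 to 53.9) TPM. With all exons as the length Itga4 was the lowest of the 10 in all 6 groups, with a group median between 3.39 and 13.8 TPM.

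Itgal, the αL chain of LFA-1, was the member with the steepest rise after VWF. Its level in the control cultures at 3.5 h was 47.0, 48.1, 63.3, 105 and 80.7 CPM, in the VWF cultures 356, 288, 289.7, 326 and 494 CPM and in the LPS cultures 129, 153, 189 and 141 CPM. Every VWF culture was above every LPS culture, and every LPS culture above every control culture. The log2 fold change was 2.28 ± 0.24 SE for VWF against control (adjusted p = 1.3e-05), 1.12 ± 0.21 for LPS against control (adjusted p = 0.00079) and 1.19 ± 0.18 for VWF against LPS (adjusted p = 0.00031). Scaled by library size alone, without TMM factors, the LPS value was 0.57 (adjusted p = 0.04), under the fold threshold. The control cultures at 16 h held 38.6, 44.7, 56.0, 40.5 and 52.8 CPM, the VWF cultures 193, 235, 309, 185 and 218 CPM and the LPS cultures 150.0, 161, 301 and 179.9 CPM. The VWF and LPS cultures overlapped at this time, and both lay wholly above the controls. VWF raised Itgal by 2.18 ± 0.16 (adjusted p = 4.3e-06) and LPS by 2.04 ± 0.21 (adjusted p = 3.3e-05) on the log2 scale, and the difference between the stimuli was 0.18 ± 0.21 (adjusted p = 0.48), or 0.43 without LPS culture 3, the highest of its group (adjusted p = 0.048) and 0.63 when scaled by library size (adjusted p = 0.042). The effect of VWF did not pass a test of difference between the times (-0.07 ± 0.30, adjusted p = 0.9), whereas that of LPS was larger at 16 h by 0.95 ± 0.33, which passed the adjusted p alone (adjusted p = 0.026) and did not pass it without LPS culture 1 or 4 at 3.5 h or LPS culture 3 at 16 h (largest adjusted p = 0.076).

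Itgam, which codes for αM (CD11b), the common surface marker of macrophages and other myeloid cells, was raised by VWF at the late time. At 3.5 h the control cultures held 252, 231, 246, 206 and 233 CPM, the VWF cultures 250.3, 261, 278, 253 and 237 CPM and the LPS cultures 259, 277, 319 and 257 CPM. The VWF cultures overlapped the controls, and neither stimulus passed the adjusted p, with 0.05 ± 0.08 for VWF (adjusted p = 0.69) and 0.20 ± 0.10 for LPS (adjusted p = 0.083, or 0.037 without control culture 1). At 16 h the values were 182, 185, 193, 180.0 and 145 CPM in the controls, 446, 475, 439, 392 and 412 CPM with VWF and 207, 255, 253 and 238 CPM with LPS. The 5 VWF cultures stood above all others, with no overlap. The log2 fold change of VWF against control was 1.18 ± 0.09 (adjusted p = 5.7e-06) and that of LPS against control 0.39 ± 0.10 (adjusted p = 0.0066), which passed the adjusted p alone, and VWF exceeded LPS by 0.84 ± 0.09 (adjusted p = 2e-05), or by 1.29, past the fold threshold, when scaled by library size. The change of the VWF effect between the times was 1.17 ± 0.11 (adjusted p = 5e-08). Scaled by library size alone, the LPS values turned negative, at -0.33 at 3.5 h and -0.18 at 16 h, so the direction of Itgam after LPS depends on the scaling. The summed level of 6 neutrophil markers, mostly S100a8 and S100a9, lay between 36.4 and 95.0 TPM in the controls and between 63.6 and 123 TPM in the VWF cultures at 16 h, while Ly6g was at 0 in both. One of them, Camp, which codes for a granule peptide, had a mean of 0.572 TPM in those controls (0.0544 to 1.95 TPM) and 7.84 TPM in those VWF cultures (6.44 to 10.4 TPM), with no overlap. The means of the others in those controls and VWF cultures were 58.6 and 58.4 TPM for S100a8 and 0.396 and 0.399 TPM for Elane. For S100a9 they were 8.11 and 17.8 TPM, and for Ltf 0.564 and 0.802 TPM. Camp was also higher with VWF at 3.5 h, at 4.65 TPM against 0.375 TPM in controls. The part of neutrophils in the Itgam level was not tested.

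Itgax, the αX chain (CD11c) that is widely used to mark dendritic cells and tissue macrophages, went the other way. At 3.5 h its level was 55.8, 37.4, 58.8, 72.8 and 64.2 CPM in the controls, 71.1, 53.3, 68.8, 59.2 and 89.2 CPM with VWF and 55.9, 54.8, 68.7 and 46.8 CPM with LPS, and the groups overlapped, with 0.16 ± 0.18 for VWF (adjusted p = 0.53) and -0.07 ± 0.17 for LPS (adjusted p = 0.71; -0.62 when scaled by library size, adjusted p = 0.0097). The late controls, at 16 h, held 81.5, 83.1, 96.7, 116 and 108 CPM, the VWF cultures 34.8, 39.5, 80.9, 51.6 and 77.1 CPM and the LPS cultures 18.5, 16.8, 31.4 and 16.8 CPM. The groups separated at this time, with the controls highest and the LPS cultures lowest. Itgax fell by 2.26 on the log2 scale with LPS (SE 0.22, adjusted p = 1.9e-05). With VWF the log2 fold change was -0.89 ± 0.23 (adjusted p = 0.016), short of the fold threshold, which it passed without VWF culture 3 (-1.04) or VWF culture 5 (-1.02). VWF stood above LPS by 1.42 ± 0.30 (adjusted p = 0.0023). In the controls themselves Itgax was higher at 16 h than at 3.5 h by 0.80 ± 0.18 (adjusted p = 0.0047). Among the dendritic cell markers Xcr1 had a mean of 0.305 TPM in the controls, 1.00 with VWF and 9.11 with LPS at 16 h, whereas Flt3, Zbtb46, Cd209a and Siglech stayed at or below 0.217 TPM on average at that time, and the part of such cells in the Itgax level was not tested.

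Itgb2, the β2 chain that all of these α subunits need, was not called in any of the 11 comparisons with TMM scaling. Its level ranged over 481 to 769 CPM in the controls, 479 to 814 CPM with VWF and 295 to 535 CPM with LPS at 3.5 h, and over 173 to 716, 505 to 1030.4 and 265 to 937 CPM at 16 h. The lowest values at 16 h, in control culture 5 and LPS culture 4, came from the cultures that stood apart. LPS against control at 3.5 h gave -0.59 ± 0.19 (adjusted p = 0.018), the only comparison with the controls in which Itgb2 passed the adjusted p, and the adjusted p was 0.05 without LPS culture 1. Scaled by library size it was -1.13 (adjusted p = 0.00036), past both thresholds. Against LPS at 3.5 h, VWF gave 0.53 ± 0.20 (adjusted p = 0.046), and an adjusted p of up to 0.12 when LPS culture 1, 3 or 4 or VWF culture 1, 2 or 5 was left out. VWF against control gave -0.09 ± 0.18 at 3.5 h (adjusted p = 0.75) and 0.28 ± 0.34 at 16 h (adjusted p = 0.62), the latter 0.06 without control culture 5. In the LPS cultures the level at 16 h against 3.5 h was 0.63 ± 0.34 (adjusted p = 0.13), and 0.89 without LPS culture 4 (adjusted p = 0.0028). The change of the LPS effect between the times was 0.68 ± 0.50 (adjusted p = 0.27), with an adjusted p of 0.03 without both cultures that stood apart.

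**Figure D1:**
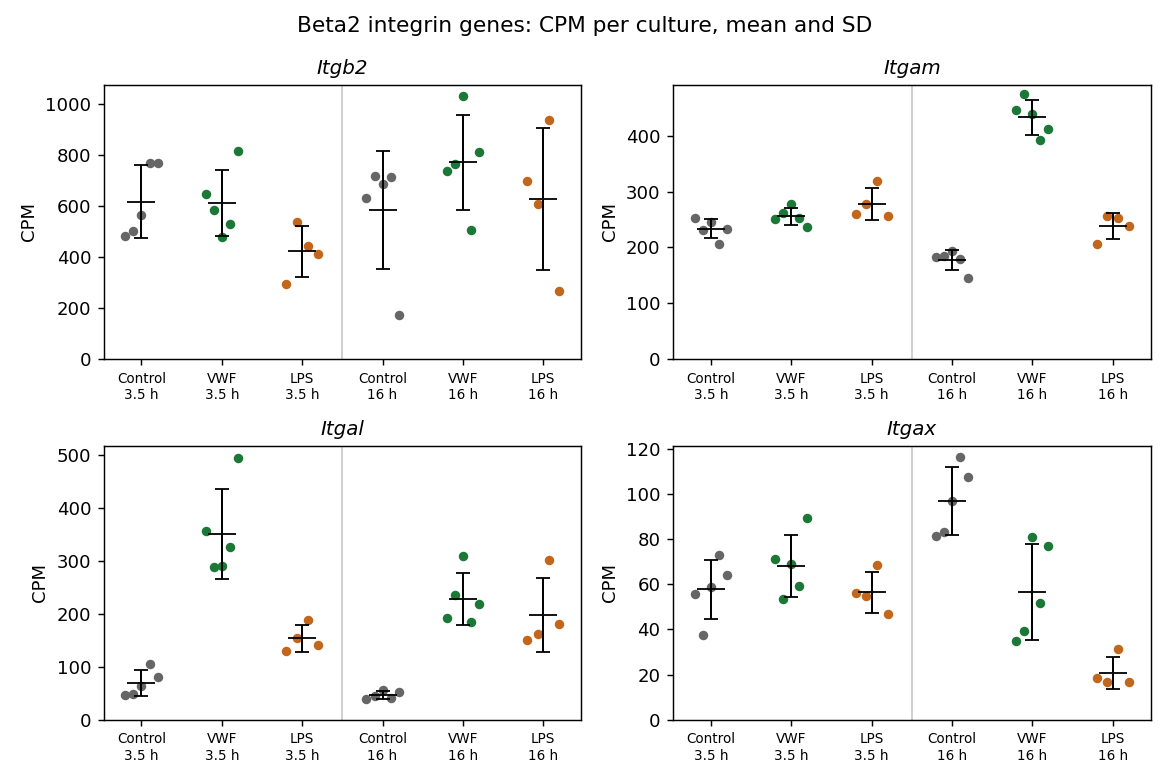
CPM of Itgb2, Itgam, Itgal and Itgax in each of the 28 cultures (points), with the group mean and SD (bars), for control, VWF and LPS at 3.5 h and 16 h. Itgal is above the controls with both stimuli at both times, Itgam is highest in the 5 VWF cultures at 16 h, Itgax is lowest in the LPS cultures at 16 h, and the low Itgb2 points at 16 h are control culture 5 and LPS culture 4.

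Put together per length, αL transcripts held a larger mean share of the β2 partners with either stimulus than in controls at the same time. The share of each α transcript in the summed TPM of Itgam, Itgal, Itgax and Itgad is a description and was not tested. Itgam made up 67.6 ± 7.30% of the sum in controls at 3.5 h, 43.5 ± 6.25% with VWF and 61.2 ± 1.22% with LPS, as mean ± SD. For Itgal the shares were 15.0 ± 4.64%, 44.6 ± 5.57% and 25.7 ± 1.38%. By all exons the αL and αM transcripts were thus at about the same level with VWF at 3.5 h, whereas αM was the larger on average in the other groups. By longest transcripts Itgal held 47.9 ± 5.51% and Itgam 39.9 ± 6.07% with VWF at 3.5 h. The unstated counting of reads shared by Itgam and Gm49368 limits the shares and ratios of this sum. At 16 h Itgal held 11.3 ± 1.79% in controls, 25.9 ± 3.04% with VWF and 36.1 ± 5.89% with LPS. Itgax took 32.2 ± 4.48% of the sum in controls at 16 h, against 8.85 ± 2.94% with VWF and 5.24 ± 0.947% with LPS. Itgad, the remaining partner of β2, had a mean share of at most 0.152% in any group. The ratio of Itgb2 to the summed α transcripts was 2.91 ± 0.547 in controls, 1.68 ± 0.209 with VWF and 1.53 ± 0.338 with LPS at 3.5 h, and 3.03 ± 1.18, 1.88 ± 0.304 and 2.49 ± 0.987 at 16 h, so β2 was the more abundant side on average in every group.

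Itga5, the α5 chain of the classical fibronectin receptor, rose with both stimuli, with VWF the stronger at the early time and LPS at the late time. At 3.5 h the controls held 387, 376, 364, 447 and 434 CPM, the VWF cultures 1189.7, 1038, 971, 983 and 1246 CPM and the LPS cultures 559, 671, 618 and 578 CPM. The 3 groups did not overlap. VWF raised Itga5 by 1.35 ± 0.11 (adjusted p = 1.2e-06), LPS by 0.55 ± 0.10 with the adjusted p alone (adjusted p = 0.00042; 0.01 when scaled by library size), and VWF stood above LPS by 0.83 ± 0.12 (adjusted p = 0.00023), or by 1.13, past the fold threshold, when scaled by library size. Values at 16 h were 140.1, 124, 109.8, 122 and 88.1 CPM in the controls, 274, 249, 291, 234 and 161 CPM with VWF and 573, 524, 722 and 468 CPM with LPS. Again the groups were apart, now with LPS highest. The log2 fold change against control was 2.25 ± 0.16 for LPS (adjusted p = 2e-06) and 0.94 ± 0.17 for VWF (adjusted p = 0.002), the latter over the fold threshold without control culture 1 (1.01) or VWF culture 5 (1.06), and VWF was below LPS by -1.27 ± 0.18 (adjusted p = 0.00017). Scaled by library size this difference was -0.82 (adjusted p = 0.0045), under the fold threshold. Between 3.5 h and 16 h Itga5 fell by 1.74 in the controls (adjusted p = 5e-06) and fell by 2.12 in the VWF cultures (adjusted p = 5.4e-07), while in the LPS cultures the difference between the times was -0.02 ± 0.14 (adjusted p = 0.89). The effect of LPS grew between the times by 1.72 ± 0.18 (adjusted p = 7e-07), and the change of the VWF effect was -0.38 ± 0.20 (adjusted p = 0.17).

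Itga4, the α4 chain that binds VCAM-1 and fibronectin, was higher with both stimuli early and lower with VWF late. At 3.5 h its level was 27.4, 30.2, 26.1, 52.2 and 36.3 CPM in the controls, 69.2, 53.4, 53.0, 52.7 and 99.3 CPM with VWF and 88.2, 99.7, 109.7 and 79.7 CPM with LPS. Both stimuli lay above the controls, with no overlap. LPS raised it by 1.41 ± 0.19 (adjusted p = 5.5e-05), and VWF by 0.85 ± 0.24 with the adjusted p alone (adjusted p = 0.012), or 1.04 without control culture 4, the highest of the controls. Scaled by library size the LPS value was 0.87 (adjusted p = 0.0026), under the fold threshold, and the VWF value 0.63 (adjusted p = 0.056). By 16 h the controls held 44.1, 59.0, 47.4, 51.8 and 44.8 CPM, the VWF cultures 15.6, 17.3, 22.4, 11.6 and 26.1 CPM and the LPS cultures 35.2, 29.1, 49.1 and 23.4 CPM. The VWF cultures were now all below the controls. With VWF Itga4 fell by 1.53 on the log2 scale (SE 0.19, adjusted p = 0.00018), and the LPS value was -0.57 ± 0.20 (adjusted p = 0.033, and up to 0.097 when control culture 2, 3 or 4 or LPS culture 1, 2 or 4 was left out), or -1.12, past both thresholds, when scaled by library size. The effect differed between the times by -2.34 ± 0.32 for VWF (adjusted p = 9.6e-06) and by -1.96 ± 0.30 for LPS (adjusted p = 4.1e-05). VWF and LPS could not be compared at 16 h under the filter, since Itga4 stayed below 10 TPM in those cultures, and without a filter the difference was -0.92 (adjusted p = 0.012).

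Itga6, the α6 chain of laminin receptors, was lower with LPS at both times. The controls at 3.5 h held 147, 163, 189, 218 and 220.4 CPM, the VWF cultures 131, 116, 99.6, 89.2 and 133 CPM and the LPS cultures 80.3, 87.9, 88.5 and 70.3 CPM. With LPS it fell by 1.24 (SE 0.12, adjusted p = 5.7e-06), and the value with VWF was -0.80 ± 0.15 (adjusted p = 0.00088), which passed the adjusted p alone and, at -1.01, also the fold threshold when scaled by library size. At 16 h the controls held 127, 163, 166, 137 and 101 CPM, the VWF cultures 134, 143, 175, 114 and 148 CPM and the LPS cultures 41.7, 43.7, 60.2 and 33.9 CPM. The VWF cultures had come back into the range of the controls, at -0.07 ± 0.14 (adjusted p = 0.77), while with LPS Itga6 fell by 1.67 (SE 0.19, adjusted p = 4.8e-05). VWF exceeded LPS by 1.64 ± 0.17 at 16 h (adjusted p = 1.8e-05), and the change of the VWF effect between the times was 0.76 ± 0.21, which passed the adjusted p alone (adjusted p = 0.0075).

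Itgb5, the β5 chain, which pairs with αv in a vitronectin receptor, was, of the 9 members tested, the one on which the stimuli differed most at 16 h. At 3.5 h its level was 291, 346, 438, 374 and 403 CPM in the controls, 238, 246, 267, 251 and 276 CPM with VWF and 207, 240.2, 239 and 244 CPM with LPS. Both stimuli were below the controls, by the adjusted p alone, at -0.61 ± 0.09 for VWF (adjusted p = 0.00017) and -0.71 ± 0.10 for LPS (adjusted p = 0.00011), the latter -1.25, past the fold threshold, when scaled by library size. At 16 h the values were 189, 199.6, 251, 209 and 284 CPM in the controls, 376, 355, 362, 416 and 265 CPM with VWF and 77.4, 74.7, 83.1 and 75.0 CPM with LPS. The 4 LPS cultures lay within a narrow band far below all others. With LPS Itgb5 fell by 1.59 (SE 0.15, adjusted p = 1.3e-05), the VWF value was 0.54 ± 0.15 (adjusted p = 0.023, and up to 0.057 when control culture 1, 2 or 4 or VWF culture 1 or 4 was left out), and VWF exceeded LPS by 2.17 ± 0.13 (adjusted p = 6.2e-07). The effect of VWF differed between the times by 1.18 ± 0.19 (adjusted p = 4.9e-05). With LPS the difference between the times was -0.86 ± 0.18, by the adjusted p alone (adjusted p = 0.00069).

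Itgb7, the β7 chain that pairs with α4 in a gut homing receptor, responded to LPS at 16 h. At 3.5 h it ranged over 17.4 to 22.0 CPM in the controls, 18.4 to 21.4 CPM with VWF and 20.1 to 22.9 CPM with LPS, and neither stimulus passed the adjusted p (scaled by library size, LPS gave -0.42, adjusted p = 0.0031). At 16 h the controls held 23.4, 18.8, 21.4, 25.6 and 13.7 CPM, the VWF cultures 26.6, 25.2, 25.2, 28.7 and 23.8 CPM and the LPS cultures 57.5, 55.4, 49.3 and 39.1 CPM. The LPS cultures were above all others. LPS raised Itgb7 by 1.26 ± 0.18 (adjusted p = 0.00027), or by 0.68 when scaled by library size, under the fold threshold, and VWF stood below LPS by -0.99 ± 0.13 (adjusted p = 9.2e-05), which was past the fold threshold without LPS culture 3 (-1.02), LPS culture 4 (-1.09), VWF culture 1 (-1.003) or VWF culture 4 (-1.03), and was -0.54 when scaled by library size. The effect of LPS grew between the times by 1.15 ± 0.20 (adjusted p = 0.00017).

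Itgb1, the β1 chain shared by Itga4, Itga5 and Itga6, was likewise not called in any of the 11 comparisons. Its level ranged over 547 to 635 CPM in controls, 669.9 to 811 CPM with VWF and 601 to 736 CPM with LPS at 3.5 h and over 279 to 520.4, 348 to 492 and 359.5 to 587 CPM at 16 h, with the lowest values of the late controls and LPS cultures again in the cultures that stood apart. VWF against control gave 0.23 ± 0.09 at 3.5 h (adjusted p = 0.062, or 0.029 without VWF culture 3) and -0.10 ± 0.17 at 16 h (adjusted p = 0.74). LPS against control gave 0.17 ± 0.09 at 3.5 h (adjusted p = 0.12; -0.37 when scaled by library size) and 0.14 ± 0.20 at 16 h (adjusted p = 0.6). Itgb1 passed the adjusted p alone in the VWF cultures at 16 h against 3.5 h, at -0.63 ± 0.11 (adjusted p = 0.00039). In 3 comparisons it passed the adjusted p once the cultures that stood apart were left out. Without control culture 5, the controls at 16 h against 3.5 h gave -0.22 (adjusted p = 0.022, in place of 0.075) and the change of the VWF effect between the times was -0.43 (adjusted p = 0.015, in place of 0.27). Without LPS culture 4, VWF against LPS at 16 h gave -0.31 (adjusted p = 0.049, in place of 0.36).

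**Figure D2:**
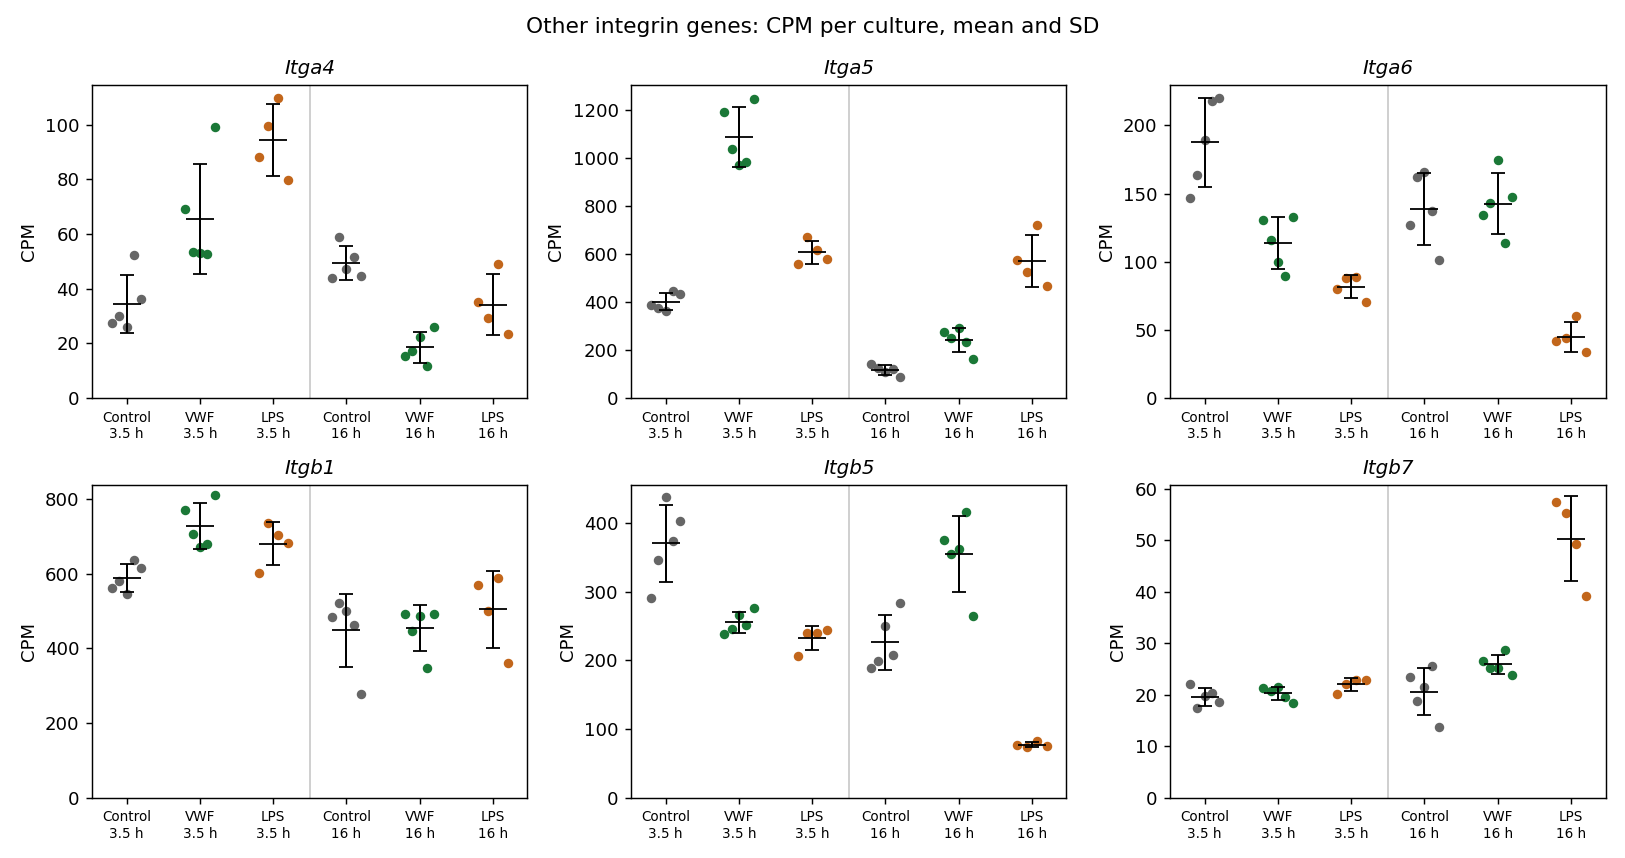
CPM of Itga4, Itga5, Itga6, Itgb1, Itgb5 and Itgb7 in each of the 28 cultures (points), with the group mean and SD (bars), for control, VWF and LPS at 3.5 h and 16 h. Itga4 is above the controls with both stimuli at 3.5 h, with VWF by a narrow margin. At 16 h the Itga4 points with VWF are below the controls and overlap those with LPS. Itga5 is highest with VWF at 3.5 h. The 4 LPS cultures at 16 h are the lowest for Itga6 and Itgb5 and the highest for Itgb7.

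Within the α4, α5 and α6 transcripts Itga5 held the largest share in every group. In controls it was 77.9 ± 2.12% of the summed TPM at 3.5 h and 55.6 ± 4.40% at 16 h. With VWF the shares were 92.8 ± 0.571% and 73.7 ± 5.61%, and with LPS 88.6 ± 0.897% and 94.0 ± 0.466%. Itga6 took 36.0 ± 4.08% in controls at 16 h, 24.3 ± 4.69% with VWF and 4.01 ± 0.303% with LPS. These shares are the ones most sensitive to the length used: with the longest transcript of each gene, Itga6 rather than Itga5 was the larger in controls at 16 h, at 50.4 ± 4.35% against 41.6 ± 4.44%. The ratio of Itgb1 to the 3 α transcripts was 1.38 ± 0.0702 in controls and 0.754 ± 0.0277 with VWF at 3.5 h, where the α side was the more abundant, and 1.00 ± 0.123 with LPS at 16 h, where the sides were about equal. With the longest transcripts the ratio was 0.687 ± 0.0272 and 0.923 ± 0.113 in those groups. Itgb7 made up 6.40 ± 0.939% of the sum of Itgb1 and Itgb7 in controls at 16 h, 7.92 ± 1.68% with VWF and 13.0 ± 1.37% with LPS. None of these shares was tested.

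**Figure D3:**
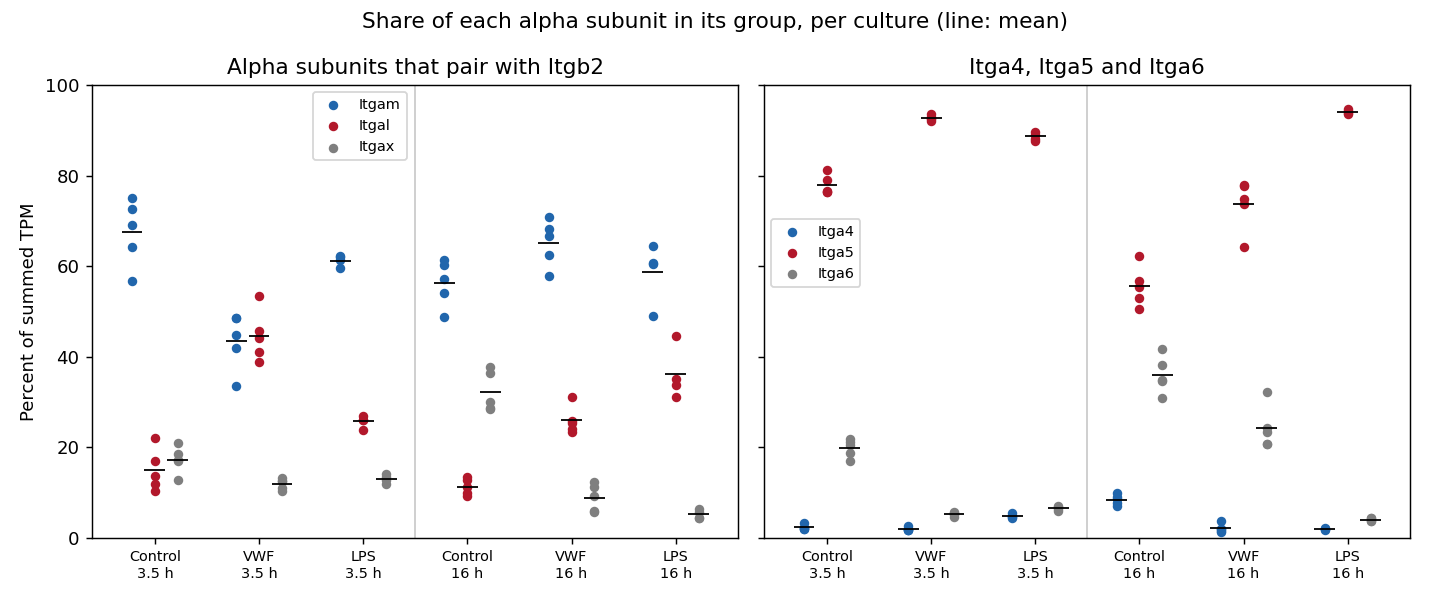
Share of each α subunit in the summed TPM of its group, in percent, in each of the 28 cultures (points) with the group mean (line): on the left Itgam, Itgal and Itgax among the partners of Itgb2, on the right Itga4, Itga5 and Itga6. The Itgal and Itgam points meet only with VWF at 3.5 h, and Itga5 makes up the most of its sum, 92.8% and 94.0% on average, with VWF at 3.5 h and with LPS at 16 h.

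Against control at 3.5 h, VWF called 2 of the 10 members higher (Itgal and Itga5) and 0 lower, and over all 8200 genes tested 9.1% were called higher and 5.59% lower. By the adjusted p alone 5 members passed, against 43.6% of all genes. LPS at 3.5 h called 2 higher (Itgal and Itga4) and 1 lower (Itga6), with 12.8% of 8190 genes called higher and 11.8% lower, and 6 members passed the adjusted p alone, against 65.7%. At 16 h VWF called 2 higher (Itgam and Itgal) and 1 lower (Itga4), with 4.55% and 4.15% of 7798 genes, and 6 passed the adjusted p alone, against 27.7%. Without VWF culture 5 the count at 16 h was 5, with Itgax and Itga5 added. LPS at 16 h called 3 higher (Itgal, Itga5 and Itgb7) and 3 lower (Itgax, Itga6 and Itgb5), with 15.3% and 12.4% of 7994 genes, and 8 passed the adjusted p alone, against 53.7%. The median log2 fold change of the 10 members was 0.10 with VWF and 0.14 with LPS at 3.5 h, and 0.25 and 0.10 at 16 h, beside -0.01, -0.02, -0.03 and -0.03 over all genes. Both stimuli were set against the same control cultures at each time, so their values are given side by side and no overlap between them is drawn.

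**Figure D4:**
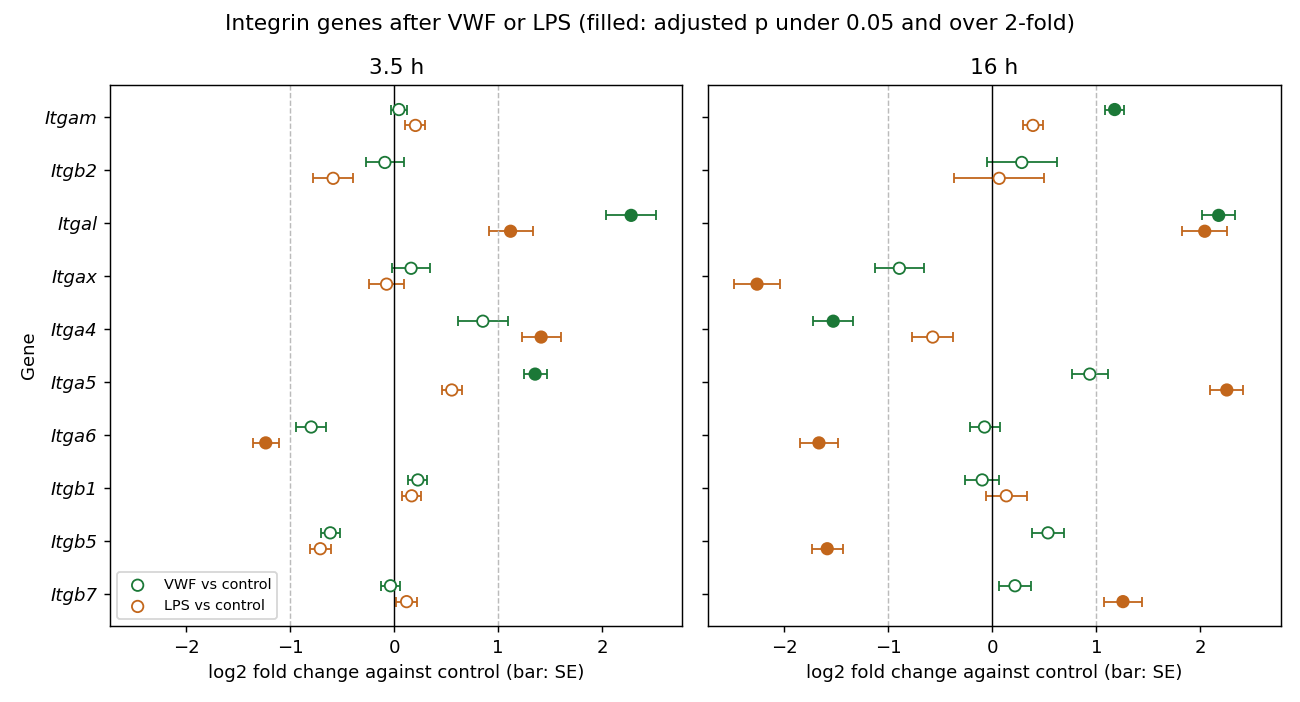
Log2 fold change against control (points, with the SE as bars) of the 10 members after VWF (green) and LPS (orange), at 3.5 h on the left and 16 h on the right, with dashed lines at the fold threshold and filled points for genes past both thresholds. Itgal is filled for both stimuli at both times (its LPS value at 3.5 h lies under the fold threshold when scaled by library size), and at 16 h Itgax, Itga6 and Itgb5 are filled on the lower side for LPS while Itgam and Itga4 are filled for VWF.

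Compared directly, VWF called 1 member higher than LPS at 3.5 h (Itgal) and 0 lower, with 4.71% of 7500 genes called higher and 6.71% lower, and 5 members passed the adjusted p alone, against 50.2%. At 16 h it called 3 of 9 tested members higher (Itgax, Itga6 and Itgb5) and 1 lower (Itga5), with 11.1% and 14.5% of 7574 genes, and 6 passed the adjusted p alone, against 60.5%. Scaled by library size alone, the LPS calls of Itgal and Itga4 at 3.5 h and Itgb7 at 16 h and the VWF against LPS call of Itga5 at 16 h were lost, while Itgb2 and Itgb5 at 3.5 h and Itga4 at 16 h were called lower with LPS, Itga6 at 3.5 h lower with VWF, and Itga5 at 3.5 h and Itgam at 16 h higher with VWF than with LPS. That scaling moved the median of all genes to -0.55 for LPS against control at 3.5 h and -0.59 at 16 h, and to -0.22 for VWF against control at 3.5 h, with 0.32 and 0.46 for VWF against LPS. With that scaling the calls over all genes, higher and lower, were 608 and 652 for VWF at 3.5 h in place of 746 and 458, and 704 and 2213 for LPS in place of 1047 and 963. At 16 h they were 782 and 2319 for LPS in place of 1221 and 989. For VWF against LPS they were 772 and 334 in place of 353 and 503 at 3.5 h, and 1772 and 687 in place of 837 and 1095 at 16 h. The TMM factors lay between 0.745 and 0.849 in the LPS cultures and between 0.899 and 1.25 in the others.

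With time alone, the controls called 0 members higher at 16 h and 1 lower (Itga5), with 4.0% of 8333 genes called higher and 5.09% lower, and 5 members passed the adjusted p alone, against 41.1%. The VWF cultures called 0 higher and 2 lower (Itga4 and Itga5), with 9.15% and 12.2% of 7927 genes, and 8 passed the adjusted p alone, against 67.9%. The LPS cultures called 1 higher (Itgb7) and 3 lower (Itgax, Itga4 and Itgb5), with 14.6% and 13.5% of 6987 genes, and 5 passed the adjusted p alone, against 60.9%. Time and culture age cannot be told apart in these comparisons, so the effects of the stimuli were also compared between the times. The log2 fold change with VWF was higher at 16 h than at 3.5 h for 2 members (Itgam and Itgb5) and lower for 2 (Itga4 and Itgax), with 5.69% and 7.77% of 8660 genes, and 5 passed the adjusted p alone, against 32.6%. For Itgax the difference was -1.02 ± 0.31 (adjusted p = 0.015), -0.88 when scaled by library size, and it lay under the fold threshold, between -0.90 and -0.98, without control culture 2 or VWF culture 5 at 3.5 h, or without control culture 4 or 5 or VWF culture 1 or 2 at 16 h. With LPS the log2 fold change was higher at 16 h for 2 members (Itga5 and Itgb7) and lower for 2 (Itga4 and Itgax, the latter by -2.17 ± 0.29, adjusted p = 9.2e-06), with 13.5% and 12.8% of 8748 genes, and 6 passed the adjusted p alone, against 48.8%. The larger LPS effect on Itgal at 16 h passed the fold threshold, at 1.05, without the cultures that stood apart.

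Most other integrin subunits lay under the filter in these macrophages. Of 17 further subunit genes, 2 passed the filter against control with VWF and with LPS at 3.5 h. At 16 h 1 passed it with VWF and 2 with LPS. Both genes tested at 3.5 h passed the adjusted p, and of these only Itgb3 was called, as lower. Over all genes 5.59% were called lower with VWF and 11.8% with LPS at that time. Itgb3, the β3 chain that pairs with αv, was at 15.6 ± 2.89 CPM in controls, 7.75 ± 2.20 with VWF and 4.81 ± 1.11 with LPS at 3.5 h, and it fell by 1.09 with VWF (adjusted p = 0.00088) and fell by 1.74 with LPS (adjusted p = 1.4e-05). At that time Itgb3 passed the filter through the control cultures alone. Itga9, an α chain that pairs with β1, rose with LPS at 16 h by 1.01 ± 0.31 (adjusted p = 0.02), from 15.1 ± 4.88 to 31.2 ± 10.8 CPM, with 7.35 ± 1.43 CPM in the VWF cultures. At 16 h Itga9 passed the filter through the LPS cultures alone. Its value lay just past the fold threshold and was not examined with library size scaling.

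Among the ligands of integrins, Icam1, Vcam1, F11r and C3 rose with VWF at 3.5 h. Of 16 ligand genes 8 were tested for VWF at that time and the others lay under the filter. These 4 were called higher and 0 lower, against 9.1% and 5.59% of all genes, and their list had a median of 1.80 on the log2 scale beside -0.01. For LPS 3 of 7 tested were called higher and 0 lower, against 12.8% and 11.8% of all genes, with a median of 0.47 beside -0.02. In this list and those that follow, a gene low in the controls could pass the filter through the stimulated cultures alone. The counts and medians of the lists therefore depend in part on the filter. Icam1, the ligand of LFA-1 and Mac-1, was at 72.3 ± 24.5 CPM in controls, 1573 ± 428 with VWF and 949 ± 398 with LPS at 3.5 h, a log2 fold change of 4.37 ± 0.27 with VWF (adjusted p = 1.6e-07). Vcam1, the ligand of α4, was at 5.12 ± 1.03, 74.6 ± 14.4 and 125 ± 22.0 CPM, and rose by 3.78 ± 0.16 with VWF (adjusted p = 1e-08). F11r, a junctional adhesion molecule bound by LFA-1, was at 1.30 ± 0.248, 19.5 ± 3.13 and 8.06 ± 1.69 CPM, and rose by 3.82 ± 0.15 with VWF (adjusted p = 6.3e-09). C3, the complement protein whose fragment Mac-1 binds, was called higher with both stimuli at both times, and at 16 h it was at 9.85 ± 4.63 CPM in controls, 236 ± 71.9 with VWF and 1390.2 ± 554 with LPS. Of 6 ligands tested at 16 h, VWF called 1 higher and 1 lower, against 4.55% and 4.15% of all genes, the latter Spp1 (osteopontin), which went from 28106 ± 3984 to 1186 ± 194 CPM and fell by 4.68 on the log2 scale (adjusted p = 9.6e-08). LPS at 16 h called 3 of 6 higher (Icam1, C3 and Thbs1) and 1 lower (Icam2), against 15.3% and 12.4%.

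Among 12 kinases and partners that signal from integrins, 4 of 10 tested were called higher with VWF at 3.5 h and 0 lower, against 9.1% and 5.59% of all genes, with a median of 0.45. They included Src, Fgr and Syk, tyrosine kinases that act next to β2 and β1 integrins. Src went from 20.6 ± 1.67 to 244 ± 22.7 CPM with VWF and 238 ± 42.3 CPM with LPS. Syk rose with VWF by 1.47 ± 0.14 (adjusted p = 4.6e-06), from 254 ± 41.0 to 743 ± 120.1 CPM, and the LPS cultures held 359.8 ± 59.7 CPM. LPS at 3.5 h called 2 of 10 higher (Src among them) and 0 lower, against 12.8% and 11.8%. At 16 h VWF called 2 of 10 higher (Fgr among them) and 1 lower (Vav3), against 4.55% and 4.15%, with a median of 0.15. LPS at 16 h called 6 of 9 higher and 0 lower, against 15.3% and 12.4%, with a median of 1.34. Lyn, a kinase of the family of Src, was at 155 ± 22.7 CPM in controls, 169 ± 18.1 with VWF and 464 ± 46.2 with LPS at 16 h.

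Activators and adaptors switch integrins into their binding state or link them to the cytoskeleton. Of 23 such genes 16 were tested at 3.5 h, and VWF called 0 higher and 1 lower (Rassf5), against 9.1% and 5.59% of all genes, with a median of -0.14. LPS called 2 higher (Rap1b and Lims1) and 3 lower (Cyth1, Rassf5 and Vcl), against 12.8% and 11.8%, with a median of -0.34. Rassf5, the Rap1 effector that activates LFA-1, was at 32.9 ± 5.43 CPM in controls, 14.7 ± 1.73 with VWF and 7.93 ± 0.307 with LPS, a log2 fold change of -1.24 ± 0.13 (adjusted p = 1.1e-05) and -2.09 ± 0.12 (adjusted p = 6.3e-08). Rap1b, a small GTPase upstream of talin, rose with LPS by 1.66 ± 0.10 (adjusted p = 7.6e-08), from 563 ± 54.2 to 1843 ± 212 CPM. Vcl, which codes for vinculin, was called lower with LPS at 3.5 h (-1.81 ± 0.70, adjusted p = 0.04), with an SD close to its mean in several groups. At 16 h 15 were tested. VWF called 1 higher (Fyb) and 1 lower (Cytip), against 4.55% and 4.15%, and LPS called 2 higher (Rap1b and Fyb) and 2 lower (Parvg and Cytip), against 15.3% and 12.4%. Cytip, which restrains β2 integrins through cytohesin, fell by 3.16 with VWF (adjusted p = 2.8e-06) and fell by 2.11 with LPS (adjusted p = 0.00013), from 39.2 ± 10.4 CPM to 4.75 ± 0.739 and 9.27 ± 2.65 CPM. Fyb, an adaptor between immune receptors and integrins, rose by 1.05 ± 0.15 with VWF (adjusted p = 0.00041) and 1.91 ± 0.15 with LPS (adjusted p = 5e-06).

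All 9 membrane partners of integrins were tested at both times. VWF called 2 higher (Cd47 and Cd82) and 0 lower at 3.5 h, against 9.1% and 5.59% of all genes. At 16 h it called 1 higher (Cd82) and 1 lower (Cd9), against 4.55% and 4.15%. LPS called 1 higher (Cd47) and 0 lower at 3.5 h, against 12.8% and 11.8%. At 16 h LPS called 3 higher and 2 lower, against 15.3% and 12.4%. The median was -0.10 with VWF and 0.16 with LPS at 3.5 h, and -0.08 and 0.38 at 16 h. Cd9, a tetraspanin that associates with β1 integrins, went from 1139.6 ± 115 CPM in controls to 229.7 ± 41.3 with VWF and 309 ± 36.4 with LPS at 16 h, with log2 fold changes of -2.42 ± 0.14 (adjusted p = 1.2e-06) and -1.92 ± 0.12 (adjusted p = 1.1e-06). Cd47, the integrin-associated protein, rose at 3.5 h by 1.20 ± 0.07 with VWF (adjusted p = 1e-07) and 1.58 ± 0.09 with LPS (adjusted p = 3.9e-08). At 16 h it was at 209.6 ± 13.1 CPM in controls, 258 ± 26.1 with VWF and 859.6 ± 129.6 with LPS. Slc3a2, the CD98 heavy chain that binds β1 tails, and the tetraspanins Cd53 and Cd81 also changed with LPS at 16 h, by 1.90 ± 0.12 (adjusted p = 1.1e-06), 1.28 ± 0.32 (adjusted p = 0.0073) and -1.42 ± 0.19 (adjusted p = 0.00015).

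Over the 28 cultures, the members were also set against all 8867 genes that reached 10 TPM in any culture, by Pearson's r of log2 CPM. The cultures share 6 groups, so these values describe likeness of pattern and carry no test. Itgal was most like Slc7a7 (r = 0.936) and Gsap (0.930), Itgam like Mmp9 (0.886) and Cd302 (0.867), and Itgax like Spn (0.925) and Tbc1d5 (0.915). Itgb2 was most like Nrd1 (0.983), and the low cultures at 16 h enter that value. Itga5 was most like Slc16a10 (0.974) and Hif1a (0.968), Itga4 like Fam129a (0.939) and Rtn4 (0.898), and Itga6 like Ulk2 (0.971) and Cluh (0.963). Itgb1 was most like Usp47 (0.972) and Mapre1 (0.969), Itgb5 like Cotl1 (0.948) and Ivns1abp (0.943), and Itgb7 like Gm16675 (0.945) and Bak1 (0.944). Between the members r was highest for Itga6 with Itgb5, at 0.85, and lowest for Itgb5 with Itgb7, at -0.778. Itgal and its partner Itgb2 had an r of 0.224, and Itga5 and its partner Itgb1 one of 0.755.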

How the data were processed

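RNA was sequenced from 28 BMDM cultures, and condition, time and replicate number of each were taken from its label. Per the labels and the methods of the study, the authors mapped the reads to GRCm38 with STAR, and they deposited whole-number counts per gene for 54532 genes with no normalization or filter. Not given in the sources used here were the STAR version, annotation, strandedness and the handling of ambiguous reads. Total counts lay between 41131209 and 77699206 per culture, and no pair of cultures of a group was a duplicate (chi-square per degree of freedom at least 15.8 over 52 pairs).

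TPM was computed from the counts and GENCODE M21 exon lengths, and log2 CPM for the likeness of patterns used a prior count of 2. Comparisons were tested by the quasi-likelihood method of edgeR (edgeR 4.0.16 in R 4.3.3), using TMM factors of the cultures in each comparison and robust dispersion, over the genes at 10 TPM or more in at least 1 culture, with Benjamini-Hochberg adjustment over all of them. The 2 interactions with time were fitted on 4 groups each. An SE is the absolute log2 fold change over the square root of F. The study used DESeq2, which was run as an alternative (DESeq2 1.42.0), with median-of-ratios factors, library size scaling, no filter, filterByExpr, a joint fit of all groups, a block for the replicate number, the adjusted p as the sole threshold, and fits without each culture. Leaving out both cultures that stood apart was chosen after seeing the data. The fits were also run on simulated counts in which some genes were changed. Those counts held no cultures that stood apart and no shift of most genes between groups, so they do not test these limits. Same-numbered cultures deviated together in every pair (r over 0.1 in each of 4 pairs, 0.159 to 0.781) only between VWF and LPS at 16 h. In each of the other comparisons of 2 groups the r of the pairs was of mixed sign, within -0.668 to 0.683.

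The 10 members are set by gene name and not by a measured value, but this set and the gene lists were chosen with earlier results of these data known. All members are named. From each list the genes named with values are those called against control, at most 5 by absolute log2 fold change, and further genes named with a count of 5 or fewer were chosen after their values were seen, as were Xcr1, S100a8 and S100a9 among the markers. Some genes that these rules would name are not reported here. Protein sequences were not used here.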

Additional observations from a re-analysis of the deposited data

Results flagged for a closer look

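In each group of 4 or 5 cultures the highest and the lowest CPM of each member were compared with the rest by Dixon's criterion at its 95% critical value, which chance passes in about 1 group in 20. Of 60 groups 5 held such a value. Control culture 5 at 16 h, which stood apart over all genes, was low for Itgam (145 CPM, with 180.0 to 193 CPM in the other controls), Itgb2 (173 CPM, with 632 to 716 CPM) and Itgb1 (279 CPM, with 461 to 520.4 CPM). LPS culture 3 at 16 h was high for Itgax, at 31.4 CPM against 16.8 to 18.5 CPM, and LPS culture 1 at 3.5 h was low for Itgb5, at 207 CPM against 239 to 244 CPM.

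The response of 6 members differed between 3.5 h and 16 h by the interaction test of edgeR, past both thresholds. For VWF the log2 fold change against control was higher at 16 h for Itgam, by 1.17 (adjusted p = 5e-08), and Itgb5, by 1.18 (adjusted p = 4.9e-05). It was lower for Itga4, with a difference of -2.34 (adjusted p = 9.6e-06), and Itgax, with -1.02 (adjusted p = 0.015). That Itgax difference lay under the fold threshold when scaled by library size (-0.88) and in some fits that left out a culture. Over all 8660 genes tested, 5.69% were called higher and 7.77% lower. For LPS the log2 fold change was higher at 16 h for Itga5, by 1.72 (adjusted p = 7e-07), and Itgb7, by 1.15 (adjusted p = 0.00017). It was lower for Itgax, with -2.17 (adjusted p = 9.2e-06), and Itga4, with -1.96 (adjusted p = 4.1e-05). Over all 8748 genes tested, 13.5% were called higher and 12.8% lower.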

How the results depend on the processing

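Over the alternatives, the 109 log2 fold changes of members gave 2043 values, of which 2001 kept their direction and their side of the thresholds or changed sign without passing the adjusted p under either setting (39 values), 12 fell below the thresholds, 26 newly passed them and 4 reversed. The 4 reversals came with library size scaling, for LPS against control: at 3.5 h Itgam at -0.33, Itgb1 at -0.37 and Itgb7 at -0.42, and at 16 h Itgam at -0.18. DESeq2, median-of-ratios factors and all groups in one fit changed 0 of the 109 calls. With no fold threshold the counts of called members were 5 for VWF against control, 6 for LPS against control and 5 for VWF against LPS at 3.5 h, 6 for VWF against control at 16 h, 5 for the controls over time and 8 for the VWF cultures over time, and with library size scaling the count for VWF against LPS at 3.5 h was 2. Leaving out each culture in turn gave 3 to 5 called members for VWF against control at 16 h and kept the count of each other comparison within 1 of its value. With both cultures that stood apart left out, Itgax fell below the fold threshold in the change of the VWF effect with time, at -0.98, and Itgb7 for VWF against LPS at 16 h (-1.09) and Itgal in the change of the LPS effect (1.05) passed it. The replicate block changed 0 of the 109 calls, including those of VWF against LPS at 16 h. In that comparison same-numbered cultures deviated together, and 4 members were called with the block and without it. What a replicate number marks is not stated in the labels or methods. Itga4, at under 10 TPM with VWF and with LPS at 16 h, is limited by the filter, and reads shared by Itgam and Gm49368 by the counting.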
